A study of Rattus norvegicus with 12 samples.

Results

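Aldosterone (ALD) was set against cortivazol (CVZ), the synthetic glucocorticoid, in primary ventricular cardiomyocyte cultures of neonatal rats. The difference was taken as ALD minus CVZ within each of 2 experiments, and the genes described as differing did so the same way in both. It rests on 4 of the 12 arrays, the 2 of ALD and the 2 of CVZ. No vehicle array and no RU486 array enters the difference itself. The cultures came from the ventricles of 1-day-old Wistar rats, were separated from fibroblasts by adhesion, and stood in OPTI-MEM for 24 h before 3 h with a ligand. The groups without RU486 were vehicle (ethanol), CVZ, corticosterone (COR) and ALD, with 1 array each in the first and in the second experiment. The same 4 conditions were run after RU486 at 10 µM, which blocks the glucocorticoid receptor (GR), with 1 array each in the second experiment. The doses of the ligands are not given in the sources used here, so a difference between ALD and CVZ cannot be told apart from one of dose.

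GR and the mineralocorticoid receptor (MR) are related nuclear receptors. On binding a steroid they leave a chaperone complex, enter the nucleus and bind largely the same hormone response elements, and GR also represses genes driven by NF-kappaB and AP-1. Aldosterone is the natural ligand of MR and binds GR with lower affinity, and cardiomyocytes hold both receptors. Cortivazol is a potent GR agonist. Its A ring carries a fused phenylpyrazole in place of the ketone that aldosterone keeps, and aldosterone has an aldehyde in place of an angular methyl group.

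All levels below are MAS5 signals divided by the array's median, so that 1 is the middle of an array, and pairs of values are given as first and second experiment. Differences are fitted log2 differences of signal plus a pseudocount of 0.0696, with the standard error, and n = 2 arrays a group. A probe set was called at an adjusted p below 0.05 from limma with Benjamini-Hochberg adjustment over all tested probe sets. The labels do not state that the 2 experiments used different cell preparations, so the p-values measure the spread between these arrays, which may be technical. The median signal before division was 24.4 and 33.7 on the ALD arrays and 21.1 and 22.4 on the CVZ arrays, so the ALD arrays were brighter in both experiments, and the part of this in the results was not tested. Of 12 cardiomyocyte markers 11 were tested, and their summed signal was 2387 and 2212 with ALD and 2538 and 2492 with CVZ. Fibroblast markers summed to 369 and 200 with ALD and to 448 and 205 with CVZ (10 of 10 tested). Endothelial markers summed to 24.1 and 15.5 with ALD and to 27.8 and 22.4 with CVZ, and macrophage markers to 21.1 and 17.4 against 20.9 and 15.5. Myh6 was the 1 marker called. A share of a cell type in the culture and its RNA per cell cannot be told apart in these bulk samples.

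The ligands left different levels at 792 of 18625 tested probe sets (4.25%), with ALD lower at 488 (2.62%) and higher at 304 (1.63%). By gene these were 495 of 10082 (4.91%), 299 lower (2.97%) and 196 higher (1.94%). All 792 had the same sign in both experiments, against 10819 of the 18625 (58.1%). The arrays of the 2 groups did not overlap at 694 of the 792 and at 26.9% of all tested probe sets. Since calling needs like values in both experiments, these shares among the calls are largely set by the choice and are no separate evidence. The median difference was log2 −0.87 among the calls with ALD lower and 0.80 among those with ALD higher, and 0.016 over all tested probe sets. At least 2-fold differences were seen at 198 of the lower and 90 of the higher calls. The count leans on 2 modelling choices: it was 18 without the experiment as a block and 78 without the mean-variance trend. It was also 486 without ALD replicate 1, 510 without CVZ replicate 1, 506 without CVZ replicate 2 and 562 without ALD replicate 2.

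**Figure D1:**
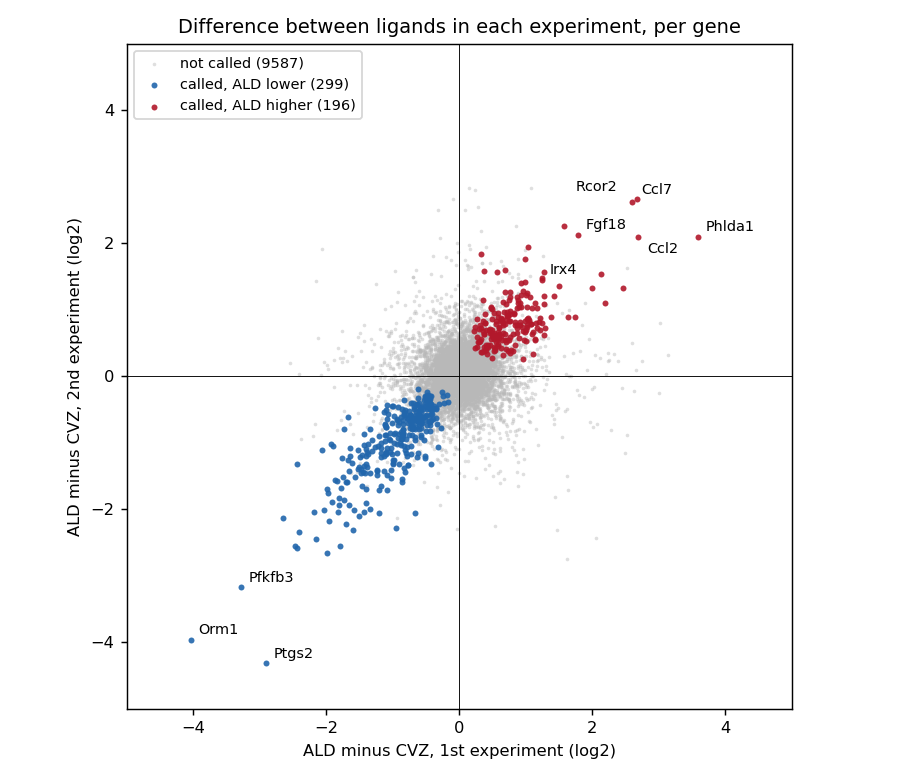
Log2 difference ALD minus CVZ in the first experiment (x axis) against the second (y axis), 1 point for each of the 10082 named genes, grey where not called, blue for the 299 genes with ALD lower and red for the 196 with ALD higher. Called genes lie at the lower left and upper right, from Orm1 at −4.03 and −3.96 to Phlda1 at 3.59 and 2.10, and since calling needs like values in both experiments this position is set by the choice.

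Against vehicle, which the difference does not use, ALD took a place between vehicle and CVZ at most calls with ALD lower. It did so at 46.1% of those with ALD higher. Among the 488 probe sets with ALD lower, ALD lay between vehicle and CVZ in both experiments at 299 (61.3%) and on the other side of vehicle from CVZ at 68 (13.9%). Among the 304 with ALD higher these were 140 (46.1%) and 54 (17.8%). ALD lay beyond CVZ as seen from vehicle, in both experiments, at 0 of the 792. Over all tested probe sets the shares were 17.2% between, 9.47% on opposite sides, 9.67% beyond and 63.6% with a place that differed between the experiments. The order vehicle, ALD, COR, CVZ from low to high held in both experiments at 269 of the 488 (55.1%, against 2.54% of all tested), and the reverse order at 116 of the 304 (38.2%, against 1.46%). These shares are a description, since the calls had been chosen for a large gap between ALD and CVZ.

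The genes with the lowest level under ALD relative to CVZ encode secreted proteins, enzymes and regulators. Orm1, which encodes the acute phase plasma protein orosomucoid, stood at 0.709 and 0.724 with ALD and at 12.7 and 12.3 with CVZ, with vehicle at 0.132 and 0.324 and COR at 2.85 and 2.35. Its 2 ALD values lay close together, far under both CVZ values, and the difference was 16.0-fold (log2 −4.00 ± 0.35, adjusted p = 4.4e-06). Both vehicle values of Orm1 lay below the level of 0.63 used to filter low probe sets. Pfkfb3, whose enzyme makes the activator of phosphofructokinase, stood at 0.533 and 0.653 with ALD, 5.76 and 6.45 with CVZ and 0.678 and 0.676 with vehicle (log2 −3.22 ± 0.29, adjusted p = 5e-06). With ALD it was at or under the vehicle level in both experiments, while CVZ stood far above. Crispld2, a secreted protein, measured 3.85 and 3.62 with ALD, 21.6 and 21.5 with CVZ and 2.65 and 1.55 with vehicle (log2 −2.51 ± 0.19, adjusted p = 1.3e-06). Pdk4, the kinase that shuts pyruvate dehydrogenase, measured 7.63 and 7.24 with ALD and 35.0 and 30.1 with CVZ (log2 −2.12 ± 0.15, adjusted p = 1.3e-06). Tcap, the titin cap protein of the Z disc, measured 18.8 and 12.5 with ALD and 73.2 and 56.6 with CVZ (log2 −2.07 ± 0.11, adjusted p = 1e-07). In each of these genes the higher ALD array stayed under the lower CVZ array. Bcl2l1, which encodes the survival protein Bcl-xL, differed by log2 −2.02, the amino acid transporter Slc7a6 by −2.17 and the arrestin-domain gene Arrdc2 by −2.30. Spata13, a guanine nucleotide exchange factor, was well above vehicle with both ligands, at 5.81 and 5.63 with ALD and 20.5 and 21.7 with CVZ against 1.14 and 0.555 with vehicle (log2 −1.87 ± 0.21, adjusted p = 5.4e-05).

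**Figure D2:**
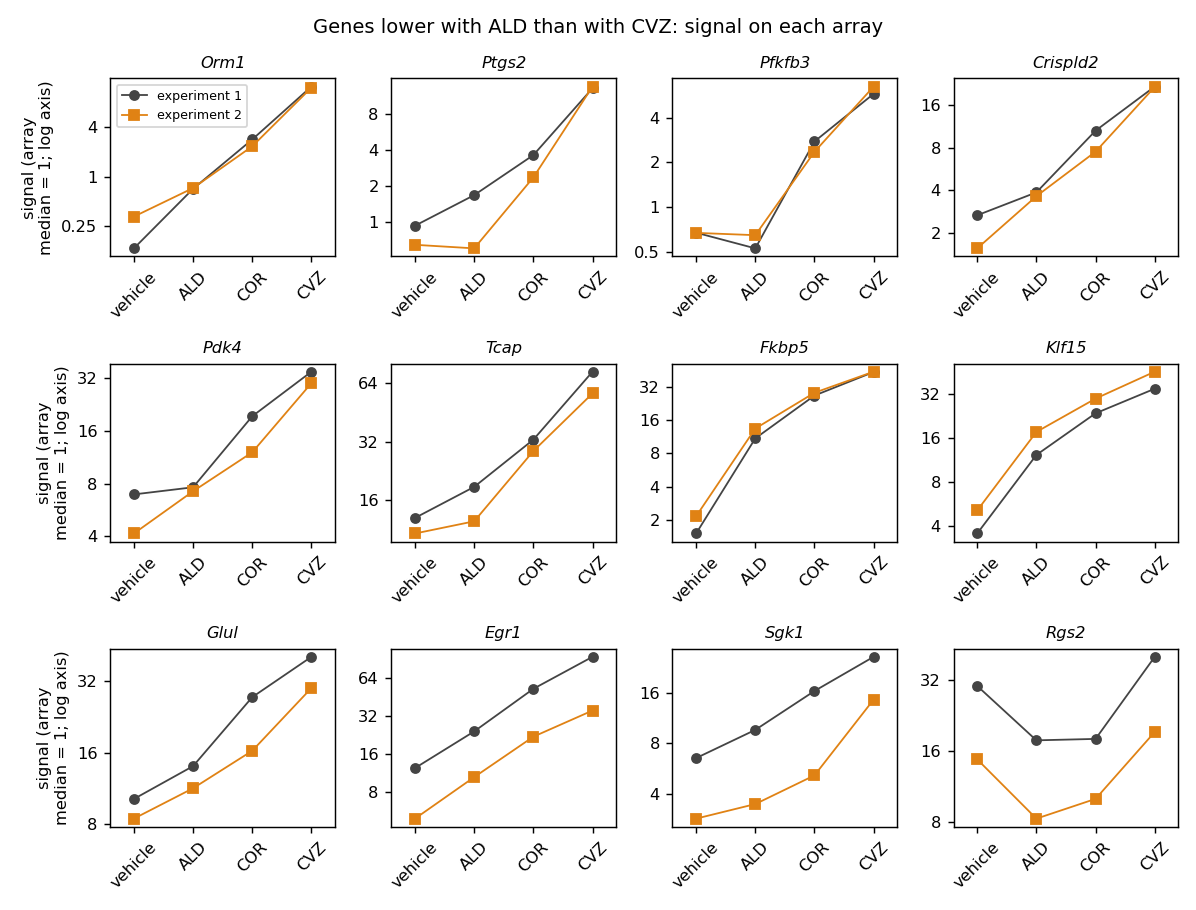
Signal (array median 1, log axis) of 12 genes called with ALD lower, for vehicle, ALD, COR and CVZ, with circles for the first and squares for the second experiment and lines joining the arrays of one experiment. CVZ is the highest of the 4 in each panel and experiment, and Rgs2 is lowest with ALD, at 17.8 and 8.28 against 30.2 and 14.8 with vehicle.

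The promoters of Orm1, the gene with the largest difference, and of Crispld2 are shown, as the 250 bases before the start (RefSeq, GRCr8). They were searched on both strands for the exact letters TGTTCT, an arm of a glucocorticoid response element, and the capitals mark a match. Elements with other letters were not searched for, so no match does not mean that an element is absent. Orm1 is at chr5:81788259-81788508, plus strand, with no match. Crispld2 is at chr19:64978706-64978955, plus strand, with a match 76 to 71 bases before the start.
Orm1: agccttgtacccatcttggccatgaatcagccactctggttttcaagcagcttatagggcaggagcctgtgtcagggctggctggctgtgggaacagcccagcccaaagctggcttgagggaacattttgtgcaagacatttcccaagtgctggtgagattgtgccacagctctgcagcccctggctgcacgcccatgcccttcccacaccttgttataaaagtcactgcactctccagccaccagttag
Crispld2: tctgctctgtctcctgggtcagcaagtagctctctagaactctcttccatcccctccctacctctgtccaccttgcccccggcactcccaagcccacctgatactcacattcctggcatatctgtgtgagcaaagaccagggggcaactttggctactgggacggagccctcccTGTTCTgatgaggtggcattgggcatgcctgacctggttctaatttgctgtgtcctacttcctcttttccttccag
Of 11 genes with ALD lower that were looked up, 10 had a window and Crispld2 was the 1 with a match. The letters occurred in 5865 of 33469 windows (17.5%), in 18 of 288 windows of called genes with ALD lower and in 21 of 189 with ALD higher. The 33469 windows include those of genes not tested here, and a gene can have several. The shares are therefore not like for like, and a difference between them was not tested. The genes and the motif were picked after the values were known, and these letters say nothing of binding.

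Glucocorticoid targets were lower with ALD as a list: 23 of 28 tested members were called, all 23 lower, beside 2.97% of all genes, and the median was log2 −1.14 beside 0.016. Of the 23 calls 18 held without any 1 array. This list and those below were chosen with earlier results of these data known, so their shares are a description and no separate evidence. The FK506-binding protein Fkbp5, a co-chaperone that lowers the steroid affinity of GR, stood at 10.9 and 13.4 with ALD and 43.5 and 43.8 with CVZ, with COR at 26.6 and 28.2 and vehicle at 1.52 and 2.17. ALD had therefore moved it away from vehicle (log2 2.69, adjusted p = 1.4e-08 for ALD minus vehicle), and CVZ further (log2 −1.84 ± 0.14, adjusted p = 1.3e-06 for ALD minus CVZ). Klf15, a transcription factor of amino acid and lipid metabolism, stood at 12.2 and 17.5 with ALD and 34.7 and 45.4 with CVZ (log2 −1.44 ± 0.11, adjusted p = 1.3e-06). Its relative Klf9 stood at 28.0 and 23.6 and 64.8 and 44.0 (log2 −1.05 ± 0.10, adjusted p = 1.1e-05). Glul measured 14.1 and 11.4 with ALD and 40.6 and 30.0 with CVZ (log2 −1.46 ± 0.12, adjusted p = 3.3e-06). In these genes ALD lay above both vehicle arrays and below both CVZ arrays. Sesn1, a stress-induced brake on mTORC1, had a smaller gap, 23.9 and 25.3 with ALD against 45.5 and 48.1 with CVZ (log2 −0.92 ± 0.10, adjusted p = 4e-05). The transcription factor Cebpb differed by log2 −1.09, the mRNA-destabilising protein Zfp36 by −1.46, and the PI3-kinase subunit Pik3r1 by −1.65. Tsc22d3 (GILZ), an anti-inflammatory leucine zipper protein, had a small difference of −0.43, which was −0.47 without CVZ replicate 1, −0.36 without ALD replicate 1 and −0.40 without CVZ replicate 2, each no longer called.

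Per1, a clock gene that glucocorticoids induce directly, was not called: ALD stood at 1.62 and 3.83 and CVZ at 3.26 and 4.88, with vehicle at 0.194 and 0.857, and the 95% interval of the difference was −1.24 to −0.081 (adjusted p = 0.26). Both ligands raised it against vehicle (log2 2.38, adjusted p = 0.00014 for ALD and log2 3.04, adjusted p = 1.5e-06 for CVZ). Kdr, a VEGF receptor gene, had intervals of the same kind, −0.82 to −0.02, with 9.86 and 8.86 for ALD and 12.6 and 12.5 for CVZ. The intervals of Per1 and Kdr allow anything from almost no gap to a gap of the size seen in called genes. Of the clock list 1 of 16 was called, the repressor Bhlhe41, higher with ALD (log2 0.94 ± 0.14, adjusted p = 0.00082). That share of 6.25% was near the 4.91% of all genes.

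Of the mineralocorticoid targets 7 of 17 tested were called lower with ALD and 1 higher, beside 2.97% and 1.94% of all genes. The list median was log2 −0.36. Of the 8 calls 3 held without any 1 array. Sgk1, the kinase that keeps epithelial sodium channels at the membrane, stood at 9.64 and 3.49 with ALD, 26.2 and 14.6 with CVZ and 6.55 and 2.86 with vehicle. Both ALD arrays lay under both CVZ arrays (log2 −1.74 ± 0.17, adjusted p = 1.6e-05), and the first experiment was higher than the second in each group. The sodium pump subunit Atp1b1 measured 149 and 114 and 185 and 151 (log2 −0.36 ± 0.08, adjusted p = 0.013), and its difference was −0.35 without CVZ replicate 1, −0.38 without CVZ replicate 2 and −0.28 without ALD replicate 2, each no longer called. Nedd4l, the ligase that removes those channels, was lower with ALD too, at 3.56 and 4.91 against 7.76 and 8.09 (log2 −0.91 ± 0.16, adjusted p = 0.0022, and −0.69 without ALD replicate 1, no longer called). Sgk1, Per1 and others stand in both the glucocorticoid and the mineralocorticoid list, so the lists are not separate. Genes of the glucocorticoid list also stand in several of the lists below.

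Of the receptor genes Nr3c1 was called, with ALD higher, and Nr3c2 was not. Nr3c1, which encodes GR, stood at 9.07 and 8.92 with ALD, 6.27 and 6.04 with CVZ and 11.6 and 9.54 with vehicle (log2 0.54 ± 0.12, adjusted p = 0.017). Both ALD arrays were above both CVZ arrays, but the call was lost on leaving out an array, at 0.48 without CVZ replicate 1, 0.60 without CVZ replicate 2 and 0.46 without ALD replicate 2. Nr3c2, which encodes MR, measured 2.89 and 2.64 with ALD and 2.31 and 2.32 with CVZ (95% interval −0.26 to 0.75). Hsd11b1, the enzyme that regenerates active glucocorticoid, measured 11.7 and 3.41 and 12.8 and 3.55 (95% interval −0.42 to 0.23), with a gap between the experiments much wider than that between the ligands. Of the list of receptors, chaperones and prereceptor enzymes 1 of 10 was called (10%, beside 4.91% of all genes).

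Several chemokines were higher with ALD. Of the cytokine and chemokine list 6 of 15 tested were called higher and 1 lower, beside 1.94% and 2.97% of all genes. The list median was log2 0.13. The 6 were the chemokines Ccl2, Ccl7, Cxcl1 and Cx3cl1 and the adhesion molecules Icam1 and Vcam1. Of the 7 calls 4 held without any 1 array. Ccl2, which draws monocytes, stood at 43.1 and 10.3 with ALD, 6.64 and 2.36 with CVZ, 45.2 and 16.3 with vehicle and 41.2 and 7.12 with COR. ALD was not called against vehicle (log2 −0.36, adjusted p = 0.62), and CVZ lay far under it in each experiment (log2 2.39 ± 0.19, adjusted p = 1.8e-06 for ALD minus CVZ). Its neighbour in the chemokine family, Ccl7, measured 4.11 and 1.13 with ALD and 0.621 and 0.125 with CVZ (log2 2.61 ± 0.31, adjusted p = 7.6e-05), and the CVZ values lay under the filter level. Cxcl1, which draws neutrophils, measured 12.6 and 2.72 with ALD and 2.22 and 1.04 with CVZ, against 11.9 and 2.98 with vehicle (log2 1.90 ± 0.31, adjusted p = 0.0013). ALD and vehicle were close in both experiments while CVZ was lower. Ccl20 went the other way, at 10.3 and 3.19 with ALD against 23.7 and 10.6 with CVZ and 1.85 and 1.09 with vehicle (log2 −1.46 ± 0.20, adjusted p = 0.00032). Icam1, an adhesion molecule for leukocytes, was higher with ALD (log2 0.84 ± 0.16, adjusted p = 0.0052), with 0.80 without CVZ replicate 1 and 0.64 without ALD replicate 2, no longer called. In the NF-kappaB and interferon list 2 of 18 were called higher and 2 lower. Tnfaip3 (A20), an NF-kappaB inhibitor, was higher with ALD (log2 1.31 ± 0.30, adjusted p = 0.017), with 0.90 without CVZ replicate 1 and 1.16 without ALD replicate 1, no longer called. Nfkbia, which encodes the inhibitor IkappaB-alpha, was lower with ALD, 6.88 and 3.41 against 11.9 and 7.89 (log2 −0.99 ± 0.15, adjusted p = 0.00078). The other lower call of the list was Zfp36, and both genes stand in the glucocorticoid list too. Irf9, a subunit of the interferon-activated complex that is not in the list, was also lower with ALD. It measured 7.09 and 7.36 against 24.5 and 23.8 (log2 −1.73 ± 0.14, adjusted p = 3e-06).

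**Figure D3:**
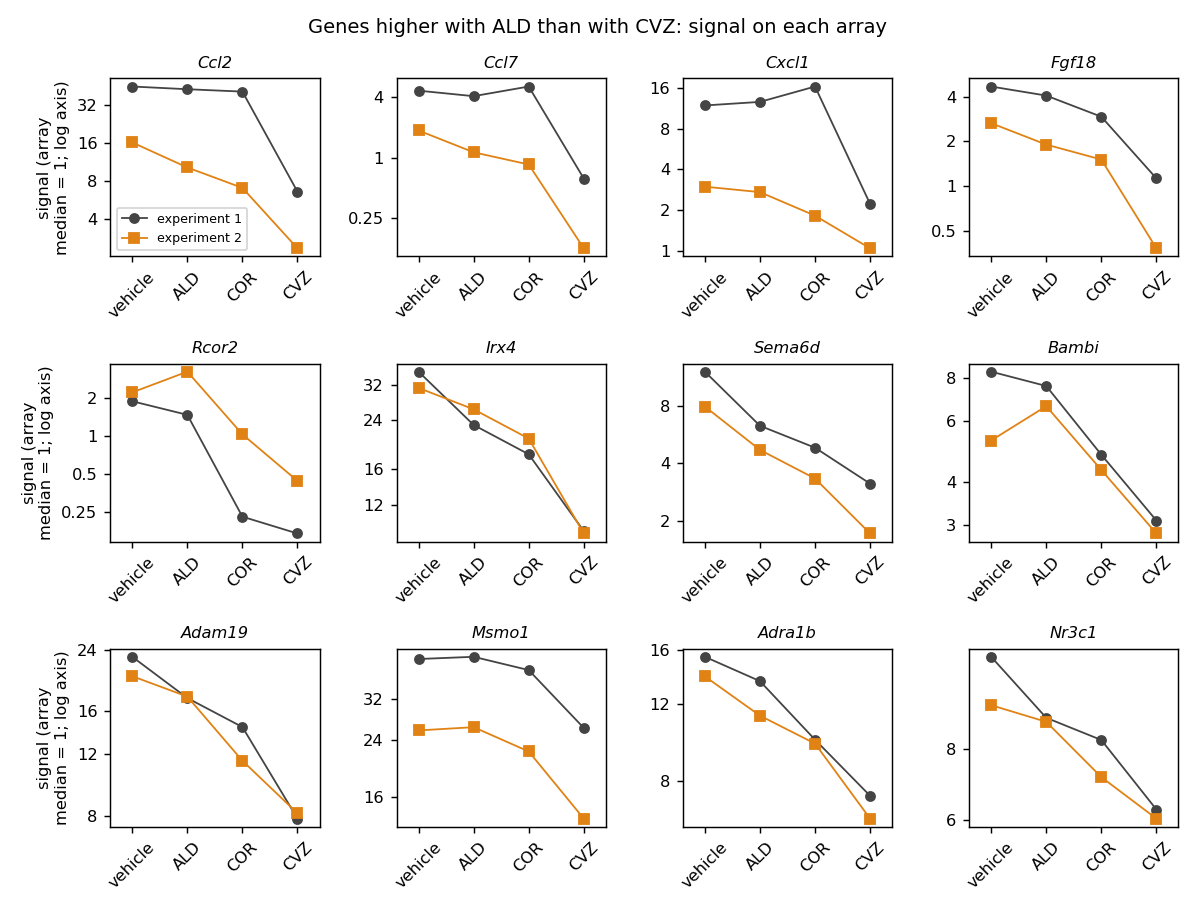
Signal (array median 1, log axis) of 12 genes called with ALD higher, for vehicle, ALD, COR and CVZ, with circles for the first and squares for the second experiment and lines joining the arrays of one experiment. CVZ is the lowest of the 4 in each panel and experiment, for example Irx4 at 9.66 and 9.48 with CVZ against 23.0 and 26.1 with ALD.

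In prostanoid synthesis 3 of 10 tested genes were called lower and 1 higher, beside 2.97% and 1.94% of all genes. The list median was log2 −0.35, and 3 of the 4 calls held without any 1 array. Ptgs2 (cyclooxygenase 2) stood at 1.68 and 0.608 with ALD, 13.0 and 13.5 with CVZ and 0.938 and 0.651 with vehicle (log2 −3.61 ± 0.29, adjusted p = 1.8e-06). ALD did not overlap CVZ and was not called against vehicle (log2 0.36, adjusted p = 0.8). Pla2g4a, the phospholipase that frees its substrate, measured 3.86 and 1.88 with ALD and 9.04 and 8.07 with CVZ (log2 −1.63 ± 0.22, adjusted p = 0.00021). The prostaglandin F receptor Ptgfr was higher with ALD, 7.98 and 4.25 against 3.50 and 2.06 (log2 1.10 ± 0.14, adjusted p = 0.00021). Ptgs1, the constitutive cyclooxygenase, was not called (95% interval −1.17 to 0.042).

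Immediate early genes were lower with ALD in 6 of 16 tested and higher in 1, beside 2.97% and 1.94% of all genes. Of those 7 calls 3 held without any 1 array (list median −0.28). Egr1, a zinc finger factor, stood at 24.3 and 10.5 with ALD, 95.2 and 35.6 with CVZ and 12.4 and 4.92 with vehicle (log2 −1.86 ± 0.10, adjusted p = 1.1e-07). Within each experiment ALD lay between vehicle and CVZ, nearer to vehicle on the log scale. Fos measured 2.23 and 0.988 and 6.18 and 2.79 (log2 −1.44 ± 0.25, adjusted p = 0.0022). Its partner Jun measured 5.85 and 5.82 and 12.8 and 8.46 (log2 −0.83 ± 0.15, adjusted p = 0.0038), with −0.69 without CVZ replicate 1 and −0.57 without ALD replicate 1, no longer called. Of the MAPK and G protein feedback list 5 of 16 were called lower and 3 higher, and 3 of the 8 held without any 1 array. Among the 5 lower ones Dusp1, Errfi1, Rgs2 and Rasd1 had already been counted in the glucocorticoid list. Dusp1, a MAPK phosphatase, was lower with ALD (log2 −0.87 ± 0.17, adjusted p = 0.007, with −0.84 without CVZ replicate 2 and −0.80 without ALD replicate 2, no longer called), and Dusp5, which acts on ERK, was higher (log2 1.15 ± 0.20, adjusted p = 0.0024, with 0.70 without CVZ replicate 2, no longer called). Errfi1, an inhibitor of the EGF receptor, was lower with ALD (log2 −1.58 ± 0.22, adjusted p = 0.00038).

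Calls in the lists of atrophy, glucose and amino acid use were mostly lower with ALD, and those of sterol synthesis were higher. Over all genes 2.97% were called lower and 1.94% higher. Of the atrophy, autophagy and insulin-FoxO list 8 of 18 were called, all 8 lower, of which 4 held without any 1 array (median −0.48). Foxo3, the transcription factor that drives many of them, stood at 11.8 and 13.3 with ALD and 32.9 and 30.2 with CVZ (log2 −1.33 ± 0.11, adjusted p = 3.5e-06). Of the 8 lower calls Sesn1, Ddit4, Klf15, Pik3r1 and Cebpd had already been counted in the glucocorticoid list. Trim63, the muscle ubiquitin ligase MuRF1, was not called, at 17.2 and 26.4 and 18.8 and 25.0 (95% interval −0.26 to 0.22). Of glucose use 3 of 16 were called lower, and abundant enzymes such as Ldha (183 and 135 with ALD and 194 and 128 with CVZ, 95% interval −0.15 to 0.14) were not called. Of fatty acid use 1 of 21 was called, the lipase Pnpla2 (log2 −0.92 ± 0.13, adjusted p = 0.0005), a share of 4.76% near the 4.91% of all genes. Of amino acid use 6 of 17 were called lower and 1 higher, and 2 of the 7 held without any 1 array. Among the lower ones was Slc3a2, the heavy chain shared by several transporters (log2 −0.87 ± 0.15, adjusted p = 0.0018, with −0.61 without CVZ replicate 2, no longer called). Of sterol synthesis 7 of 16 were called, all 7 higher with ALD, and 1 of the 7 held without any 1 array (median 0.37). That gene, the sterol oxidase Msmo1, measured 43.2 and 26.3 with ALD, 26.1 and 13.8 with CVZ and 42.6 and 25.7 with vehicle (log2 0.83 ± 0.09, adjusted p = 4.4e-05). Dhcr7, the last enzyme of the path, measured 12.6 and 7.87 and 7.40 and 5.18 (log2 0.68 ± 0.13, adjusted p = 0.0035), with 0.58 without CVZ replicate 1, no longer called. In both genes ALD was at or a little above vehicle and CVZ below it. Of purine turnover 2 of 13 were called lower, each losing the call without some single array, and 1 of them was Xdh, xanthine oxidoreductase (log2 −1.26 ± 0.26, adjusted p = 0.0074, with −0.91 without CVZ replicate 1 and −0.99 without ALD replicate 1, no longer called).

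**Figure D4:**
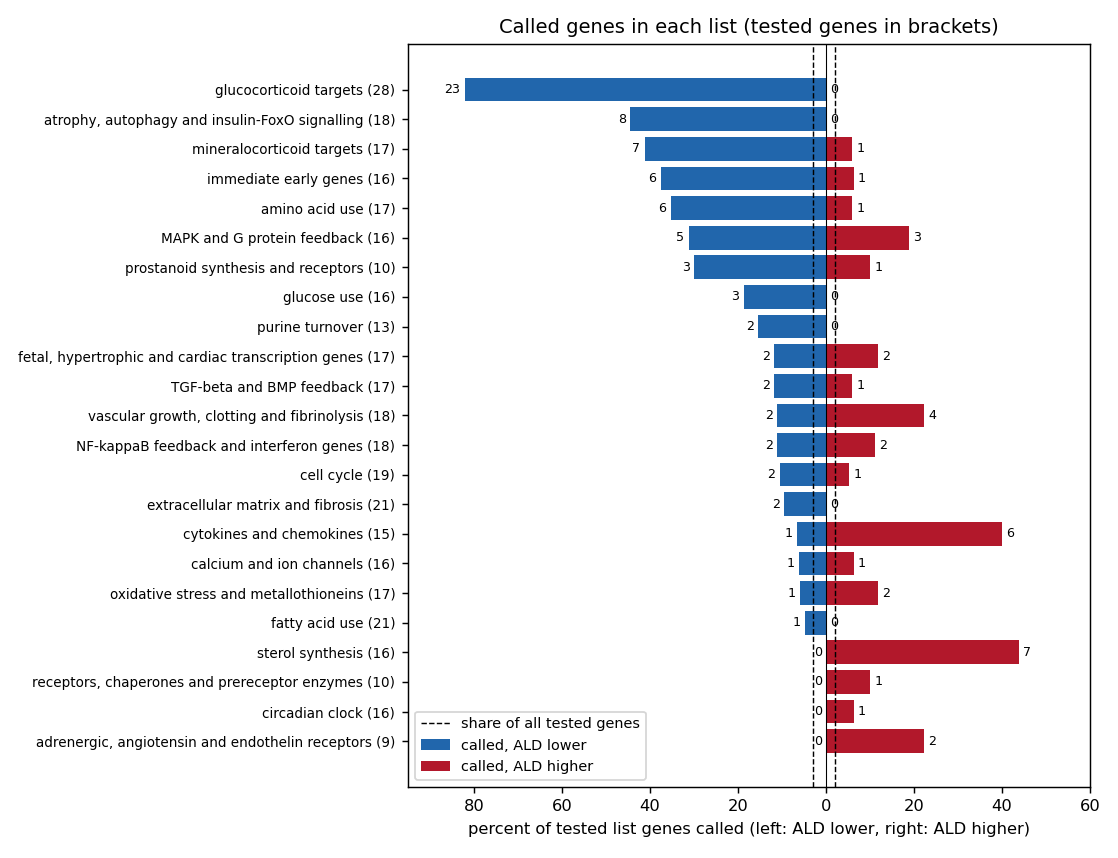
Percent of the tested genes of each list that were called, blue to the left for ALD lower and red to the right for ALD higher, with the counts at the bar ends, tested genes in brackets and dashed lines at the share of all tested genes (2.97% and 1.94%). Glucocorticoid targets reach furthest to the left (23 of 28). Sterol synthesis (7 of 16) and the cytokine and chemokine list, which also holds Icam1 and Vcam1 (6 of 15), reach furthest to the right. The lists were chosen with earlier results of these data known and share genes.

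Heart muscle genes went both ways. Of the fetal, hypertrophic and cardiac transcription list 2 of 17 were called higher and 2 lower (23.5% called, beside 4.91% of all genes), and 1 of the 4 held without any 1 array. Irx4, a ventricular transcription factor, stood at 23.0 and 26.1 with ALD, 9.66 and 9.48 with CVZ and 35.6 and 31.1 with vehicle (log2 1.35 ± 0.11, adjusted p = 1.8e-06). Mef2c, a muscle transcription factor, was higher with ALD (log2 0.53 ± 0.11, adjusted p = 0.0087), with 0.40 without CVZ replicate 1, 0.53 without ALD replicate 1 and 0.52 without ALD replicate 2, no longer called. Nppb, the B-type natriuretic peptide, was lower with ALD, 69.3 and 26.0 against 86.6 and 54.6 (log2 −0.69 ± 0.13, adjusted p = 0.0039), with −0.38 without CVZ replicate 2 and −0.51 without ALD replicate 2, no longer called, while Nppa was not called (95% interval −0.17 to 0.15). Gja1 (connexin 43) was higher with ALD, 264 and 237 against 220.3 and 157 (log2 0.43 ± 0.09, adjusted p = 0.0075), with 0.23 without CVZ replicate 2 and 0.40 without ALD replicate 2, no longer called. Myh6, the one cardiomyocyte marker called, differed by log2 −0.24, and was no longer called without either ALD or either CVZ array. Its difference was −0.24 without CVZ replicate 1, −0.23 without ALD replicate 1, −0.25 without CVZ replicate 2 and −0.26 without ALD replicate 2. With quantile normalization it was −0.058, no longer called. The alpha-adrenergic receptor Adra1b was higher with ALD, 13.5 and 11.3 against 7.39 and 6.55 (log2 0.82 ± 0.11, adjusted p = 0.00034). Of extracellular matrix genes 2 of 21 were called lower (9.52%, beside 2.97% of all genes), each losing the call without some single array, and Col1a1, type I collagen, was not called (95% interval −0.44 to 0.011).

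Vascular, clotting and growth factor genes went both ways, with 4 of 18 called higher and 2 lower, beside 1.94% and 2.97% of all genes. Of the 6 calls 4 held without any 1 array. F3 (tissue factor), which starts clotting, stood at 5.54 and 6.64 with ALD, 17.9 and 20.2 with CVZ and 1.55 and 1.45 with vehicle (log2 −1.64 ± 0.14, adjusted p = 3.7e-06), so both ligands lay above vehicle and CVZ further. Thbd (thrombomodulin), which checks clotting, was lower with ALD too (log2 −1.71 ± 0.29, adjusted p = 0.0018), with −1.50 without CVZ replicate 1, no longer called. Nrp1, a co-receptor for VEGF and semaphorins, was higher with ALD, 25.6 and 21.6 against 15.0 and 9.42 (log2 0.98 ± 0.11, adjusted p = 5.1e-05), as was the secreted glycoprotein Stc1, 7.67 and 8.79 against 3.27 and 4.75 (log2 1.05 ± 0.14, adjusted p = 0.00018). Fgf18, a growth factor of the same list, stood at 4.06 and 1.90 with ALD and 1.12 and 0.379 with CVZ (log2 1.96 ± 0.21, adjusted p = 3.7e-05). Outside the list Sema6d, a semaphorin, stood at 6.31 and 4.71 and 3.13 and 1.71 (log2 1.21 ± 0.15, adjusted p = 0.00012). The corepressor Rcor2 measured 1.46 and 3.20 with ALD and 0.171 and 0.442 with CVZ (log2 2.67 ± 0.33, adjusted p = 0.00012), both CVZ values lying under the filter level. Phlda1, a pleckstrin homology protein, had CVZ values of 0.0711 and 0.0670, about the pseudocount, so that its size (2.85, and 2.20 without ALD replicate 1, no longer called) depends on it. Bambi, a TGF-beta pseudoreceptor, was higher with ALD (log2 1.24 ± 0.16, adjusted p = 0.00016), as was the metalloprotease Adam19 (log2 1.13 ± 0.11, adjusted p = 1.5e-05). For Irx4, Adam19, Nr3c1, Dusp1, Jun and Ptgfr another probe set of the gene had the same sign and was not called. For Myh6 another probe set showed almost no difference (log2 −0.011, not called). Sizes also differed between called probe sets of a gene. Others of Stc1 gave log2 3.20 and 1.12, another of Pfkfb3 −1.77 and another of Klf9 −2.57. For some genes they were close, such as Crispld2 (−2.40) and Pdk4 (−1.93).

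Some genes stood on opposite sides of vehicle with the 2 ligands. Rgs2, which shortens signals of Gq-coupled receptors, measured 17.8 and 8.28 with ALD, 30.2 and 14.8 with vehicle and 40.1 and 19.3 with CVZ (log2 −1.19 ± 0.11, adjusted p = 5.6e-06 for ALD minus CVZ). It was called against vehicle in both directions, log2 −0.80, adjusted p = 0.00072 for ALD and log2 0.40, adjusted p = 0.032 for CVZ. COR, at 18.0 and 10.0, also lay under vehicle. For B3galnt1, a glycosyltransferase, ALD stood at 10.4 and 5.22, vehicle at 11.7 and 6.40 and CVZ at 24.7 and 14.1 (log2 −1.33 ± 0.12, adjusted p = 6.9e-06), and for Ndrg3 at 1.45 and 1.88, 2.26 and 2.30 and 3.95 and 4.82 (log2 −1.36 ± 0.19, adjusted p = 0.00033). In B3galnt1 and Ndrg3 the ALD side was small and not called (log2 −0.23, adjusted p = 0.63 and log2 −0.45, adjusted p = 0.47).

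At the threshold, the gene Clec16a was just called (10.6 and 12.6 with ALD and 14.7 and 17.2 with CVZ, log2 −0.46 ± 0.12, adjusted p = 0.0499) and Slc4a4, a bicarbonate transporter, just not (5.82 and 8.61 and 8.31 and 11.9, log2 −0.49 ± 0.13, adjusted p = 0.0502). Clec16a lost its call on leaving out any ALD, CVZ or COR array (−0.53 without CVZ replicate 1, −0.46 without COR replicate 1, −0.37 without ALD replicate 1, −0.38 without CVZ replicate 2, −0.46 without COR replicate 2 and −0.54 without ALD replicate 2). Their differences were nearly equal. Another probe set of Slc4a4 was called (log2 −0.61, adjusted p = 0.049), and another of Clec16a was not (log2 −0.36, adjusted p = 0.41).

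With RU486 given first, the difference between the ligands was called at 1 of 18625 probe sets (0.00537%, n = 1 array a group, spread borrowed from the replicated groups), and at 396 with an unadjusted p under 0.05. The probe sets lower with ALD without RU486 had a median of log2 0.082 with it, and those higher with ALD a median of 0.0086, beside 0.020 over all tested. The change of the difference was called at 189 probe sets (1.01%), 152 with the difference more negative without RU486 and 37 more positive. Neither these calls nor the 1 under RU486 held under the other error models: without the experiment as a block, and without the mean-variance trend, both counts were 0. With 1 array a group the RU486 side has no replicate check. The change contains the ALD minus CVZ difference at which the genes below had been called, so it is no separate evidence for them. Orm1 stood at 0.497 with ALD plus RU486 and 0.412 with CVZ plus RU486, and its difference changed by log2 −4.23 ± 0.61, adjusted p = 0.0021. Fkbp5 stood at 5.33 and 4.25 (change −2.16 ± 0.24, adjusted p = 0.00042). Ccl2 stood at 11.3 and 8.18 (change 1.92 ± 0.33, adjusted p = 0.0077). In all 3 the RU486 pair lay close together where the pair without RU486 lay far apart. The 1 call was Cebpd, a C/EBP transcription factor, at 2.20 with ALD plus RU486 and 0.159 with CVZ plus RU486 (log2 3.31 ± 0.33), a difference between single arrays. The CVZ plus RU486 value lay under the filter level, and another probe set of Cebpd read 0.621 and 0.373 on the same arrays (log2 0.64, not called). Without RU486 Cebpd was lower with ALD (log2 −0.94 ± 0.24, adjusted p = 0.033), with −0.94 without COR replicate 1, −0.82 without ALD replicate 1, −0.68 without CVZ replicate 2 and −1.07 without ALD replicate 2, no longer called. Rgs2 stood at 8.18 and 11.1 with RU486, and the change of its difference was not called (−0.76 ± 0.19, adjusted p = 0.078).

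**Figure D5:**
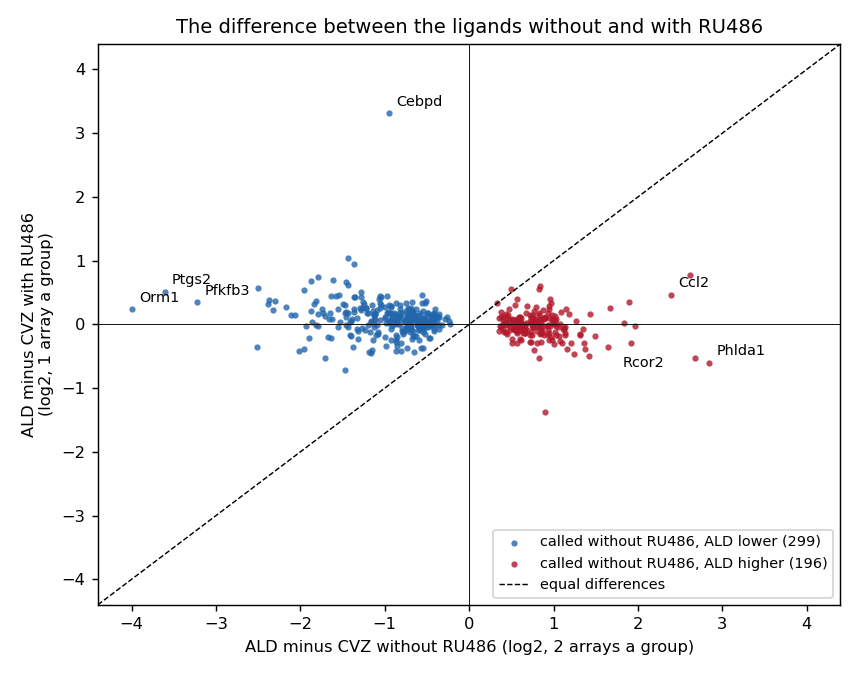
Log2 difference ALD minus CVZ without RU486 (x axis, 2 arrays a group) against that with RU486 (y axis, 1 array a group) for the 495 named genes called without RU486, blue for ALD lower and red for ALD higher, with a dashed line of equal differences. Most points lie near 0 on the y axis, such as Orm1 and Pfkfb3, and Cebpd stands apart at log2 3.31.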

How the data were processed

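Total RNA of 12 cultures was measured on Affymetrix rat arrays. The deposited files hold linear intensity values, made with MAS5 per the submitters' processing notes. Tested on the values, each array had been divided by its own median. From these values log2(signal + pseudocount) was computed, the pseudocount of 0.0696 being the 10th percentile. Of 31099 probe sets 57 controls were left out, and 18625 with a mean above the 40th percentile were tested. Symbols came from the platform annotation, updated to GRCr8 RefSeq through gene IDs (20758 of 20826 probe sets with 1 symbol). All 12 arrays entered 1 model with 8 groups and the experiment as a block, in limma 3.58.1 under R 4.3.3, with a mean-variance trend. It had 3 residual degrees of freedom and 15.2 with the prior, so standard errors borrow strongly across probe sets. The procedure was tested on simulated data.

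The titles pair the arrays by experiment, and deviations from the group means correlated between CVZ and ALD at 0.53 (0.512 to 0.567 over all pairs of groups). Each gene is named by its probe set of highest mean. Named genes came from the 20 largest differences each way, called members of 31 lists and up to 4 others of each list, the 2 receptors, the 12 largest with the ligands on opposite sides of vehicle, the 10 called of highest signal, the 8 largest changes under RU486 and the genes nearest the threshold. Not every such gene is reported. The members, lists and motifs were chosen with earlier results of these data known. Alternatives were 2 pseudocounts, 2 filters, 2 scalings, no block, no trend, 2 subsets of arrays and leaving out each array.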

Additional observations from a re-analysis of the deposited data

Results flagged for a closer look

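The difference ALD minus CVZ was another without RU486 than with it at 189 probe sets, by the interaction term of the limma fit, with 1 array a group and no replicate check on the RU486 side. The count was 0 without the experiment as a block and 0 without the mean-variance trend. For the genes named in the text that were among them, the values below are the log2 difference without RU486 minus that with it. They contain the ALD minus CVZ difference at which these genes had been called, so they are no separate evidence. The most negative changes were those of Cebpd at −4.25, Orm1 at −4.23, Ptgs2 at −4.12, Pfkfb3 at −3.58, Crispld2 at −3.08, Arrdc2 at −2.67 and Spata13 at −2.55. Next came Slc7a6 at −2.45, Pdk4 at −2.26, Tcap at −2.22, Fkbp5 at −2.16, Ccl20 at −2.12, Mt2A at −2.09 and Pla2g4a at −2.08. Changes of intermediate size were those of Errfi1 at −2.03, Sgk1 at −1.98, Irf9 at −1.92, Qsox1 at −1.91, Egr1 at −1.90, Pik3r1 at −1.83 and Ndrg3 at −1.80. Smaller changes were those of Ivns1abp at −1.65, Bcl2l1 at −1.60, Glul at −1.57, Zfp36 at −1.45, F3 at −1.43, Foxo3 at −1.42 and Klf15 at −1.40. The remaining negative changes were those of B3galnt1 at −1.26, Klf9 at −1.12, Cdkn1a at −1.11 and Sesn1 at −1.11. Positive changes, led by those farthest from 0, were those of Rcor2 at 3.20, Fgf18 at 1.99, Ccl2 at 1.92, Bambi at 1.70 and Sema6d at 1.50. The other positive changes were those of Irx4 at 1.42, Ptgfr at 1.39, Srxn1 at 1.25, Adam19 at 1.18, Stc1 at 1.09 and Nrp1 at 0.95. The CVZ plus RU486 array read 0.159 for Cebpd, under the filter level of 0.63, and another probe set of the gene was not called under RU486.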

How the results depend on the processing

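The numbers of calls depended on the error model more than on scaling. All counts are from limma. Without the replicate block, that is without the experiment as a paired term, the calls in ALD minus CVZ fell from 792 to 18 (1 with ALD higher and 17 lower). Without the mean-variance trend they were 78 (12 and 66). All 18 and 77 of the 78 were also among the 792. Under RU486 both settings gave 0 calls (91 and 533 at an unadjusted p under 0.05). For the change of the difference both gave 0 as well, in either direction (361 and 1335 at an unadjusted p under 0.05). Without a filter on low signals 19 changes with ALD higher were called in place of 37. On leaving out 1 array of the groups without RU486 the calls ranged from 486 to 851, with 143 to 327 higher and 283 to 524 lower, and 284 of the 792 held without any 1 array. Under the other 2 pseudocounts and the other 2 scalings 757 of the 792 held. Among the 12 genes called under every setting run were Crispld2, F3, Fkbp5, Irf9, Ivns1abp, Pdk4, Ptgs2, Qsox1 and Tcap. No called gene named here changed sign under any setting. Trim63 and Ldha, which were not called, had opposite signs in the 2 experiments. The signals carry no depth, and the number of arrays limits the precision. Probe sets with a group near the pseudocount give sizes that depend on it.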

Other observations

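Among genes of growth arrest and redox balance not described above, the cell cycle inhibitor Cdkn1a measured 9.87 and 19.2 with ALD and 20.4 and 37.4 with CVZ (2.00-fold lower, adjusted p = 2.6e-05). Cyclin G1 (Ccng1), a p53 target with high signal, measured 105 and 86.4 and 143 and 139 (log2 −0.57 ± 0.08, adjusted p = 0.00046). Both were lower with ALD on each array. Btg1, an antiproliferative factor, was higher with ALD, 106 and 90.2 against 76.8 and 54.8 (log2 0.59 ± 0.08, adjusted p = 0.00021). The metallothionein Mt2A, which binds zinc and copper, was lower with ALD, 12.6 and 8.47 against 68.2 and 21.3 (log2 −1.88 ± 0.25, adjusted p = 0.00022), although its second CVZ array lay closer to the ALD arrays than its first. Sulfiredoxin (Srxn1) was higher with ALD, 5.05 and 6.09 against 2.33 and 2.95 (log2 1.06 ± 0.14, adjusted p = 0.00023), and so was the thioredoxin inhibitor Txnip, 62.2 and 53.4 against 44.9 and 25.9 (log2 0.76 ± 0.11, adjusted p = 0.00056). Another probe set of Srxn1 had the same sign and was not called. In the whole lists 1 of 19 cell cycle genes was called higher and 2 lower, and 2 of 17 genes of oxidative stress and metallothioneins were called higher and 1 lower. The shares beside which these stand are 1.94% of all genes higher and 2.97% lower.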
